A study of Saccharomyces cerevisiae with 12 samples.

Results

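Gene expression was compared between H2B R95A and H2B WT yeast after both strains had been exposed to rapamycin. These are 6 of the series' 12 arrays, 3 for each strain, chosen as the samples labelled with the agent rapamycin, and every probe set annotated with a single Saccharomyces cerevisiae gene was used: 5498 probe sets for 5449 genes, of 10928 in the table. In H2B R95A, alanine replaces the arginine at residue 95 of histone H2B. Both strains belong to an H2A/H2B mutant collection built in the haploid MATa strain FY406. In this background both chromosomal H2A-H2B gene pairs are deleted and the histones come from a single-copy plasmid, so the controls carry the same deletions and the only difference given is the H2B allele. Each allele was represented by 1 strain. Exponentially growing cells received rapamycin at 200 ng/ml for 30 min. The other 6 arrays hold the same strains without the drug. They are used here to ask whether a difference between the strains was also present before treatment. They also enter the test between the treated strains, through the estimate of the spread that all 12 arrays share. Neither the labels nor the methods say whether replicates 1, 2 and 3 came from separate cultures, so that the p-values measure the spread between these arrays, which may be partly technical.

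A haploid yeast cell has 1 of 2 mating types, a or α. Cells of type a express a-specific genes, which encode the a-factor pheromone, its exporter and the receptor for α-factor, and α cells express the matching α-specific set. Haploid-specific genes, which include the shared parts of the pheromone pathway, are on in both haploid types and are shut off in diploids by a repressor made of the a1 and α2 proteins. When α-factor binds the receptor Ste2, the G protein formed by Gpa1, Ste4 and Ste18 passes the signal to the scaffold Ste5 and the MAP kinase Fus3. Fus3 then acts on the transcription factor Ste12 and on Far1, which holds the cell in G1. Rapamycin, bound to Fpr1, inhibits the TORC1 kinase, which drives ribosome synthesis and represses nitrogen scavenging, autophagy and stress genes.

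The median log2 signal lay between 7.25 and 7.29 in the 6 treated arrays. Quantile normalization makes such medians nearly equal, so that they do not compare the overall level of the arrays. The mean log2 signal of the poly-A spike-in probe sets was 4.63, 5.31 and 4.52 in H2B WT and 4.86, 5.21 and 5.48 in H2B R95A. The replicate 1 arrays stood apart in both strains. The mean log2 signal of 12 glucose-repressed genes was 10.52 and 10.73 in replicate 1 of H2B WT and H2B R95A and lay between 6.86 and 8.12 in the other 4 treated arrays. The H2B substitution itself cannot be read from a 3′ expression array. HTB1, which encodes H2B, had log2 signals of 11.98, 12.27 and 12.31 in H2B WT and 12.32, 12.30 and 12.40 in H2B R95A, and HTB2, the second H2B gene, lay between 5.96 and 6.07 in all 6 arrays. HTB2 is among the genes stated to be deleted, its signal was above the 95th percentile of the Schizosaccharomyces pombe probe sets on the same arrays (1.37), and whether its probe set reads the plasmid copy of HTB1 was not tested. The histone transcripts thus gave no check of the strain labels. With 3 arrays against 3, an exact permutation test cannot give a p under 0.1, so calls rest on limma fitted across all 5498 probe sets.

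Few genes differed between the treated strains. The log2 fold changes (H2B R95A minus H2B WT) had quartiles of -0.10 and 0.12 and a median of 0.02. A total of 19 probe sets passed the test (limma, Benjamini-Hochberg adjusted p under 0.05), which is 0.346% of those tested. Of these, 17 were lower in H2B R95A (0.309%) and 2 were higher (0.0364%). Of the 17 lower genes, 6 were a-specific, 9 haploid-specific, and the other 2 were ICS2 and YCL021W-A. The 2 higher genes were COS12 and IME4. The replicate numbers paired between the treated strains. With the replicate number as a block in the fit of the 6 treated arrays, 58 probe sets passed (1.05%), with the 19 among them, and 46 of these were lower (0.837%) and 12 higher (0.218%). The H2B R95A arrays lay entirely below those of H2B WT in 151 probe sets (2.75%) and entirely above in 90 (1.64%). With 3 arrays against 3 in random order, complete separation in either direction has a probability of 0.1, so that separation alone is not a call. At the methods' threshold, a 2-fold change with p no higher than 0.01 before adjustment, 32 were lower (0.582%) and 6 higher (0.109%). The same block over all 12 arrays gave 36 (0.655%), 30 lower and 6 higher, all of them among the 58. Below, the block means that over the 6 treated arrays, and a gene that did not pass over 12 arrays is named as such. Leaving out 1 array at a time gave 2 higher and between 6 and 15 lower, of which between 6 and 12 were among the 17. These fits had no replicate block, so that each also left 1 array without its pair. For MFA2, STE2, STE6, GPA1, NEJ1 and IME4 the call held under each of 18 alternative fits, scalings and array sets, and none of the 19 changed direction.

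**Figure D1:**
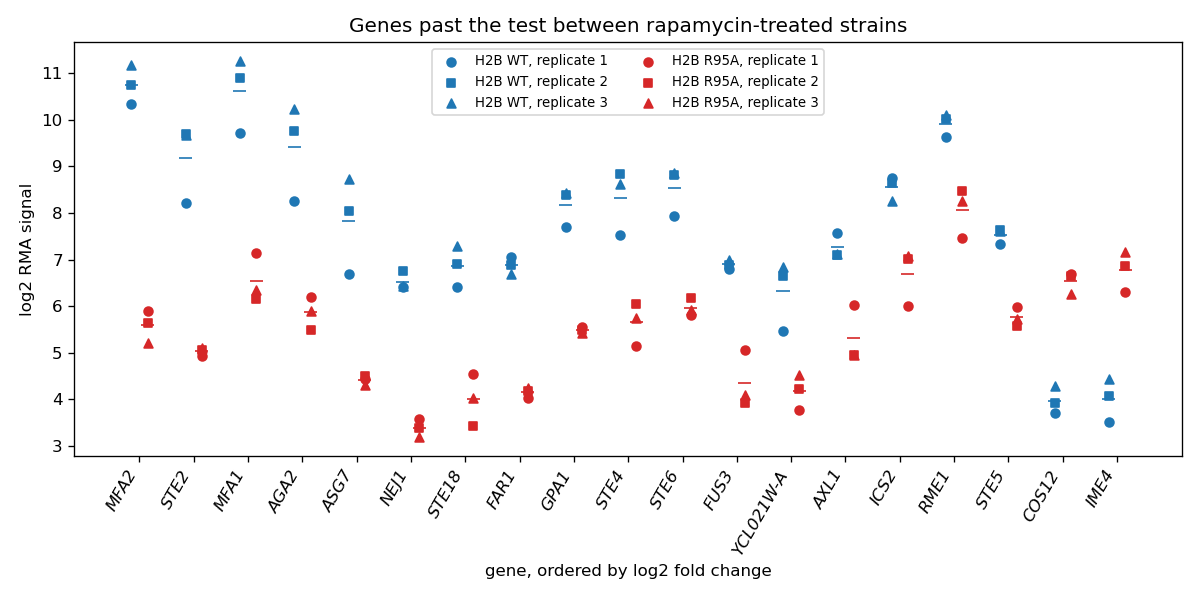
Log2 RMA signal (vertical axis) of the 19 genes past the test in each rapamycin-treated array, ordered by log2 fold change along the horizontal axis. Blue marks are H2B WT and red marks H2B R95A, the marker shape gives the replicate and the short lines are group means; the 2 strains do not overlap for any of these genes.

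The a-specific genes had the largest differences. MFA2, 1 of the 2 genes for the a-factor precursor, had log2 signals of 10.33, 10.73 and 11.17 in H2B WT and of 5.89, 5.65 and 5.22 in H2B R95A. Every H2B R95A array thus lay below every H2B WT array, and the means differed 35.7-fold (log2 fold change -5.16, standard error 0.36, adjusted p = 8.15e-05 from limma). In bulk RNA, fewer cells that express a gene and less RNA per cell cannot be told apart. MFA1, the other a-factor gene, read 9.70, 10.89 and 11.25 in H2B WT and 7.15, 6.16 and 6.34 in H2B R95A, a 16.8-fold difference (adjusted p = 0.0146 from limma). STE2, the α-factor receptor, read 8.20, 9.69 and 9.66 in H2B WT and 4.94, 5.07 and 5.11 in H2B R95A. Its 3 mutant arrays were nearly identical, and the spread came from the low first replicate of H2B WT (17.7-fold, adjusted p = 0.0032 from limma). STE6, the transporter that exports a-factor, fell by 2.57 on the log2 scale (standard error 0.33, adjusted p = 0.00557 from limma). AGA2, the binding subunit of a-agglutinin, fell by 3.55 (adjusted p = 0.048 from limma) and ASG7, an a-specific regulator of signalling through Ste4, by 3.40 (adjusted p = 0.0468 from limma). Only BAR1, the secreted protease that degrades α-factor, did not pass.

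The BAR1 values show how much the first replicate weighed. They were 6.65, 9.59 and 9.69 in H2B WT and 4.16, 4.21 and 4.25 in H2B R95A. The strains did not overlap and the log2 fold change was -4.44, but its standard error was 0.90 and the adjusted p 0.11 from limma. With the replicate block the adjusted p was 0.0084. Across the list, 6 of 7 a-specific genes passed as lower without the block and 7 of 7 with it, and the median log2 fold change was -4.07 against 0.02 for all tested probe sets. The mean log2 signal over the 7 genes was 8.25, 9.65 and 9.94 in H2B WT and 5.51, 5.32 and 5.29 in H2B R95A. The gap between the strains in replicate 1 was therefore smaller, with a median over the list of -2.48, than in replicates 2 and 3, where it was -4.62 and -4.56.

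Haploid-specific genes formed the second group. All 13 had a negative log2 fold change and all 13 had their H2B R95A arrays below those of H2B WT, an arrangement found in 2.75% of the tested probe sets. Of these, 9 passed the test, 12 passed with the replicate block and 11 with the block over 12 arrays, and the median was -1.95. The G protein was lower in its α, β and γ subunits. GPA1, the α subunit, read 7.70, 8.38 and 8.44 in H2B WT and 5.55, 5.49 and 5.42 in H2B R95A (6.42-fold, adjusted p = 0.00361 from limma). STE4, the β subunit, read 7.53, 8.83 and 8.62 against 5.16, 6.05 and 5.75 (6.38-fold, adjusted p = 0.0448), and STE18, the γ subunit, read 6.40, 6.91 and 7.28 against 4.56, 3.43 and 4.03 (7.27-fold, adjusted p = 0.0475 from limma). The replicates were most even for GPA1 in the mutant, where the 3 arrays had an SD of 0.06.

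Of the kinase module below the G protein, the haploid-specific parts were lower. STE5, the scaffold, read 7.32, 7.63 and 7.60 in H2B WT and 5.98, 5.58 and 5.72 in H2B R95A. The strains lay well apart, 3.38-fold, with SDs of 0.17 and 0.20 (adjusted p = 0.0146 from limma). FUS3, the mating MAP kinase, read 6.80, 6.88 and 7.00 against 5.05, 3.93 and 4.09, a 5.81-fold difference (adjusted p = 0.0448 from limma). FAR1, the inhibitor of G1 cyclin-dependent kinase, read 7.06, 6.87 and 6.68 against 4.03, 4.19 and 4.24, and differed 6.58-fold (adjusted p = 0.00361 from limma). No array of H2B R95A came near those of H2B WT for these 3 genes. Of 12 components in common with further MAP kinase pathways, none passed the test with or without the block, and their median was -0.05. The kinases STE20, STE11 and STE7 had log2 fold changes of -0.07, 0.06 and 0.10, and KSS1, the MAP kinase of filamentous growth, -0.32.

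Some of the remaining haploid-specific genes act outside the signalling chain. NEJ1, a regulator of non-homologous end joining, read 6.40, 6.75 and 6.43 in H2B WT and 3.58, 3.39 and 3.20 in H2B R95A, an 8.80-fold difference (adjusted p = 0.0032 from limma). The arrays of each strain were close, with an SD of 0.19 in both. RME1, a repressor of entry into meiosis, read 9.63, 10.01 and 10.09 against 7.47, 8.47 and 8.25 (adjusted p = 0.0448), and AXL1, a protease that trims the a-factor precursor, had a log2 fold change of -1.95 (adjusted p = 0.0229 from limma). SST2, which switches Gpa1 off, STE12, the transcription factor of the pathway, and RDH54, a recombination translocase, had log2 fold changes of -1.81, -1.26 and -1.06. They passed only with the replicate block (adjusted p = 0.013, 0.030 and 0.011 from limma), and STE12 not over 12 arrays (adjusted p = 0.225 from limma). HO, the endonuclease of mating-type switching, was low in both strains, at 4.10 to 4.20 in H2B WT and 3.29 to 3.50 in H2B R95A, and passed neither way (adjusted p of 0.56 and, with the block, 0.071 from limma).

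**Figure D2:**
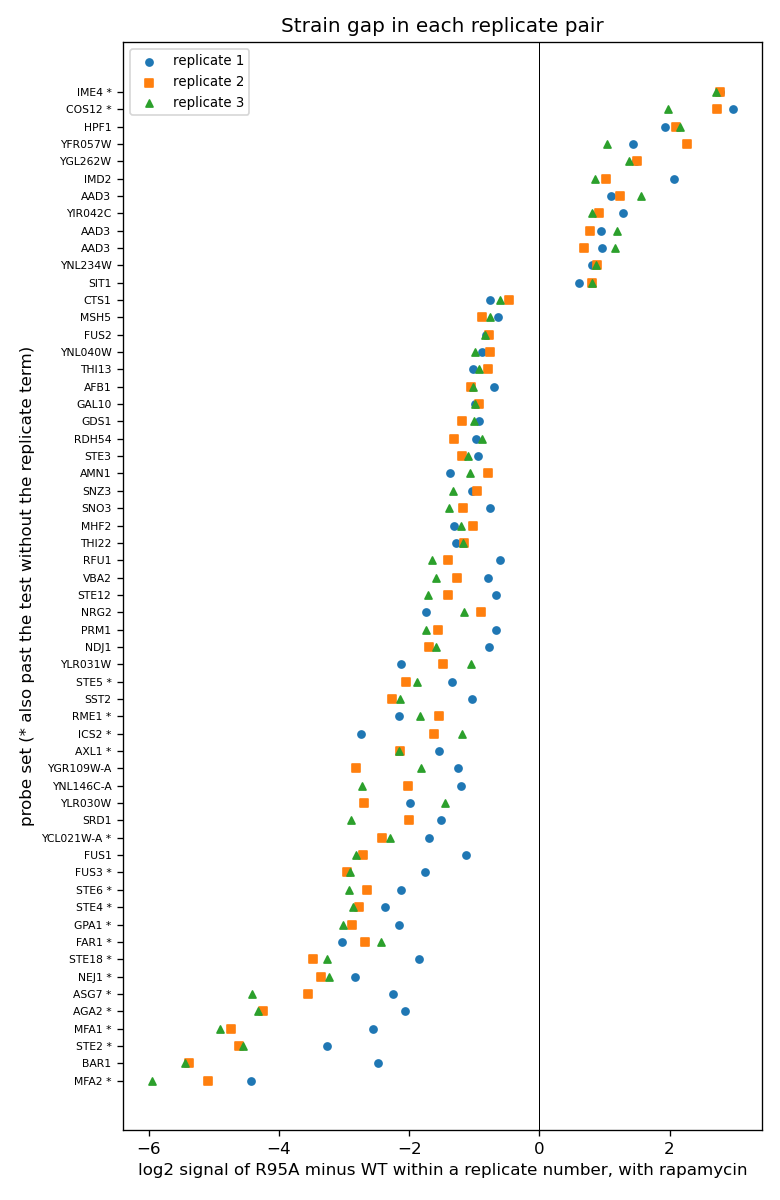
Log2 signal of H2B R95A minus H2B WT within each replicate number (horizontal axis) for the 58 probe sets past the test with the replicate block, with an asterisk on those that also passed without it. Circles, squares and triangles are replicates 1, 2 and 3; for BAR1 the gap in replicate 1 was -2.48, against -5.38 and -5.44 in the others.

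The other 2 lower genes belong to neither list. ICS2, a gene of unknown function, read 8.74, 8.64 and 8.26 in H2B WT and 6.00, 7.01 and 7.08 in H2B R95A (adjusted p = 0.0382 from limma). YCL021W-A, for which no function is given here, had a log2 fold change of -2.14 (adjusted p = 0.048 from limma).

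Targets that Ste12 induces in response to pheromone were less clearly separated. Of 18 measured, 17 had a negative log2 fold change and none passed the test. FUS1 and FUS2, needed for cell fusion, and PRM1, a membrane protein of fusion, passed with the replicate block, at log2 fold changes of -2.21, -0.81 and -1.32 (adjusted p = 0.016, 0.025 and 0.036 from limma). With the block over 12 arrays none of the 3 passed (adjusted p = 0.702, 0.942 and 0.358 from limma). The median was -0.60. AGA1, the anchor of a-agglutinin, read 6.53, 8.98 and 9.56 in H2B WT and 5.77, 5.45 and 5.66 in H2B R95A. Its strains did not overlap, but the first H2B WT array lay close to the mutant, and the adjusted p was 0.97 from limma and 0.09 with the block. TEC1, a partner of Ste12 in filamentous growth, showed the same layout, with 7.45, 9.19 and 9.27 against 7.18, 6.62 and 6.99 (adjusted p = 0.17 with the block from limma).

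**Figure D3:**
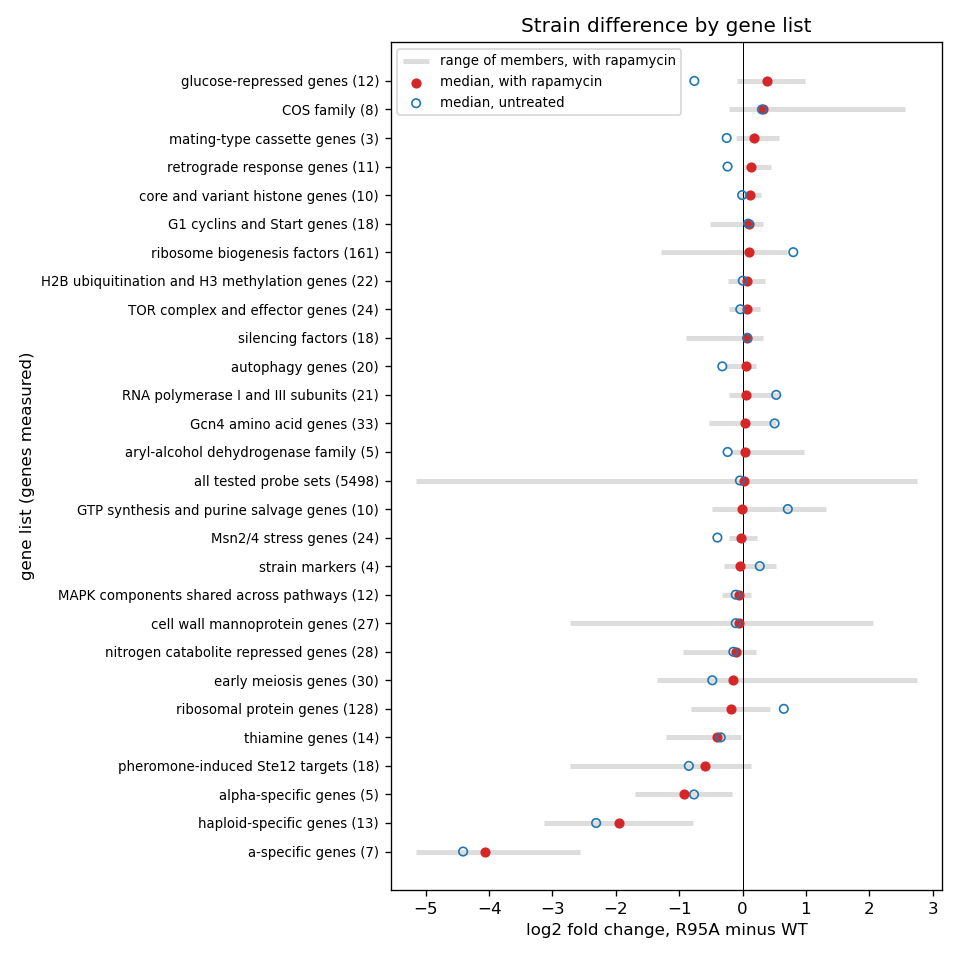
Median log2 fold change (H2B R95A minus H2B WT, horizontal axis) of each gene list with rapamycin (filled) and without it (open), with the number of genes measured in brackets; the grey bar is the range of the members with rapamycin. The a-specific and haploid-specific lists lie far to the left in both conditions, and the ribosomal protein and ribosome biogenesis medians are -0.18 and 0.10 with the drug and 0.65 and 0.80 without it.

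The strain background was labelled MATa, and the mating-type markers were read against that label. H2B WT had high a-specific signals. In H2B R95A, MFA1 still read 6.16 to 7.15 and STE2 4.94 to 5.11, and α-specific genes were not higher. Of 5 α-specific genes all were negative (median -0.92), none passed the test, and STE3, the a-factor receptor, and AFB1, the a-factor barrier, passed as lower with the replicate block (-1.08 and -0.92, adjusted p = 0.013 and 0.020 from limma). Over 12 arrays neither passed (adjusted p = 0.126 and 1.00 from limma). STE3 read 3.95, 4.62 and 4.77 in H2B WT and 3.00, 3.43 and 3.67 in H2B R95A. MF(ALPHA)1, the main α-factor gene, read 5.59, 2.85 and 3.24 in H2B WT and 2.19, 2.19 and 2.21 in H2B R95A. The high value belonged to the first H2B WT array, the array in which BAR1, STE2 and AGA1 were lowest among the 3 H2B WT arrays, and its part in those values was not tested. In the first untreated H2B WT array MF(ALPHA)1 read 3.74 and BAR1 6.56. The a-specific gaps in replicates 2 and 3, given above, were larger than in replicate 1. Among the mating-type cassette genes, whose copies at the silent and active loci share sequence, none passed. HMRA1 read 8.15, 7.98 and 8.08 in H2B WT and 8.43, 7.93 and 8.39 in H2B R95A, with overlap, and HMLALPHA1 lay between 2.66 and 3.51 in all 6 arrays. HMRA2 read 8.70, 8.39 and 8.57 in H2B WT and 9.03, 8.91 and 9.45 in H2B R95A, so that its mutant arrays lay above, but the log2 fold change of 0.58 did not pass with the block (adjusted p = 0.18 from limma). HMLALPHA2 and the MAT genes were not analysed here.

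Both genes that were higher in H2B R95A had clear separation. COS12, a member of the COS family of membrane proteins encoded near chromosome ends, read 3.72, 3.92 and 4.30 in H2B WT and 6.69, 6.64 and 6.27 in H2B R95A. It rose 5.89-fold (log2 fold change 2.56, standard error 0.23, adjusted p = 6.84e-04 from limma). IME4, the mRNA N6-adenosine methyltransferase that yeast needs for meiosis, read 3.52, 4.08 and 4.44 against 6.29, 6.85 and 7.16. It rose 6.74-fold (standard error 0.33, adjusted p = 0.00361 from limma). In IME4 the 2 strains had almost the same gap in each replicate pair, and the standard error of 0.33 became 0.12 with the replicate block. The IME4 locus is also transcribed in the antisense direction, and which strand the probe set reads is not given in the sources used here. COS12 lost its call only after centring on the poly-A spike-in probe sets (adjusted p = 0.134 from limma), a scaling that moved the median of all probe sets to -0.35.

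Most genes that were higher with the replicate block lie near chromosome ends. There were 10 such genes, from 12 probe sets. In the gene order of RefSeq's R64 assembly, 6 of the 10 were among the outermost 5 genes of a chromosome arm and 8 among the outermost 20, against 1 and 6 of the 46 lower genes. Over 12 arrays 5 genes were higher, COS12, IME4, HPF1, IMD2 and AAD3, of which 3 and 4 lay in these windows. These windows hold 1.8% and 9.65% of the tested genes, and both were chosen after the values had been seen. The outermost 10 genes, 4.31% of those tested, held 6 of the 10 higher and 3 of the 46 lower genes. COS12 is the outermost gene of its arm and YGL262W, of unknown function, is next to it. YGL262W read 3.81, 4.34 and 4.60 in H2B WT and 5.30, 5.84 and 5.97 in H2B R95A, a log2 fold change of 1.45 (adjusted p = 0.20 and, with the block, 0.0016 from limma). YFR057W, also uncharacterised and outermost on its arm, read 1.01, 1.20 and 1.81 in H2B WT and 2.46, 3.47 and 2.85 in H2B R95A. Of its H2B WT arrays 2 lay below the S. pombe percentile of 1.37, so that no fold is given. YIR042C, uncharacterised and outermost as well, had a log2 fold change of 1.01. Over 12 arrays YGL262W, YFR057W and YIR042C did not pass (adjusted p = 0.0767, 0.062 and 0.457 from limma). YNL234W, at position 99 from its chromosome end, was also higher with the block (log2 fold change 0.86, adjusted p = 0.013 from limma). It did not pass over 12 arrays (adjusted p = 0.457 from limma). Of all 98 tested genes in the outermost 5 positions, 49 were positive and 49 negative, with a median of 0.01.

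AAD3, a putative aryl-alcohol dehydrogenase gene at the second position of its arm, was read by 3 probe sets, which passed with the block at log2 fold changes of 0.93, 0.97 and 1.30. The probe set at 0.93 did not pass over 12 arrays (adjusted p = 0.0886 from limma). Of the 3 probe sets, 2 carry suffixes for probes that may match several genes. The other 4 measured members of the family had values between -0.19 and 0.19 and did not pass. IMD2, an IMP dehydrogenase of GTP synthesis at the third position of its arm, read 5.69, 8.04 and 7.67 in H2B WT and 7.75, 9.06 and 8.53 in H2B R95A. The strains overlapped, yet each mutant array was above the H2B WT array of the same number, and the adjusted p was 0.049 with the block. Its probe set too may match related genes. None of the other 9 genes of GTP synthesis and purine salvage passed. HPF1, a cell wall mannoprotein, read 7.97, 8.89 and 8.79 in H2B WT and 9.90, 11.00 and 10.95 in H2B R95A. The strains did not overlap and the gap was steady over the replicates (log2 fold change 2.06, adjusted p = 0.11, and 1.36e-04 with the block from limma). The other 26 mannoprotein genes did not pass, with a median over all 27 of -0.06. Among 8 COS genes only COS12 passed, and COS4, the next highest, had a log2 fold change of 0.56 (adjusted p = 0.080 with the block from limma). Of the 8, 6 were positive and 2 negative, with a median of 0.32. In 3 of them every H2B R95A array lay above every H2B WT array, an arrangement found in 1.64% of the tested probe sets.

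Some genes outside the mating lists were also lower with the replicate block. Thiamine genes were negative in 14 of 14 cases, with a median of -0.40. None passed the test, and THI22, THI13 and SNZ3 passed with the block. THI22, annotated with a role in thiamine biosynthesis, read 6.96, 7.10 and 7.18 in H2B WT and 5.69, 5.93 and 6.01 in H2B R95A. Its strains did not overlap (log2 fold change -1.20, adjusted p = 0.098 and, with the block, 0.0029 from limma). THI22 lies next to AXL1 in gene order. SNZ3 lies next to SNO3, its partner in vitamin B6 synthesis, and both were lower with the block, at -1.10 and -1.11. The probe sets of THI13, SNZ3 and SNO3 carry a suffix for probes that may match several genes, so that their signals may not come from these genes alone. ICS2 lies next to AMN1, an inhibitor of mitotic exit, which had a log2 fold change of -1.08 (adjusted p = 0.013 with the block from limma). A further pair, YLR030W and YLR031W, had log2 fold changes of -2.05 and -1.55, and YLR031W did not pass over 12 arrays (adjusted p = 0.0549 from limma). The other genes lower with the block belong to none of the lists. Of these, SRD1 (-2.13), VBA2 (-1.22), MHF2 (-1.18) and GDS1 (-1.04) also passed over 12 arrays, and YNL146C-A (-1.98), YGR109W-A (-1.96), NRG2 (-1.27), RFU1 (-1.22), GAL10 (-0.97), YNL040W (-0.88) and CTS1 (-0.61) did not.

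IME4 stood alone among the genes of early meiosis. Of 30 measured, 27 were negative, the median was -0.15, and IME4 was the only member past the test. IME1, the master activator of meiosis, and IME2, its kinase, had log2 fold changes of -0.24 and -0.09, SPO11, which makes meiotic double-strand breaks, -0.09, and DMC1, the meiotic strand-exchange protein, -0.16. NDJ1, which attaches telomeres in meiosis, and MSH5, a crossover factor, were lower with the replicate block (-1.35 and -0.75, adjusted p = 0.036 and 0.029 from limma), and neither passed over 12 arrays (adjusted p = 0.253 and 1.00 from limma). NDJ1 was near the lower end of the signal range in the mutant, at 1.90 to 2.03.

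Neither the lists of TORC1 targets nor the glucose-repressed genes had a member past the test. None of 128 genes listed as ribosomal protein genes, 161 ribosome biogenesis factors or 21 subunits of RNA polymerases I and III passed, with or without the block. Their median log2 fold changes were -0.18, 0.10 and 0.06. The 128 include RPP1, which encodes a subunit of RNase P and not a ribosomal protein. Over the ribosomal protein genes the mean log2 signal was 9.06, 8.92 and 8.68 in H2B WT and 8.77, 9.21 and 8.16 in H2B R95A. The strains overlapped and the order changed from replicate to replicate. Over the ribosome biogenesis factors it was 6.03, 5.04 and 5.24 against 5.96, 5.06 and 5.55, again with overlap. Nitrogen catabolite repressed genes (28, median -0.10), Msn2/4 stress genes (24, -0.02), retrograde response genes (11, 0.13), autophagy genes (20, 0.06), Gcn4 targets of amino acid biosynthesis (33, 0.04) and glucose-repressed genes (12, 0.38) had none past the test either. MEP2, an ammonium permease, and GAP1, the general amino acid permease, had the largest strain differences among the nitrogen genes, at -0.93 and -0.80, with standard errors of 1.02 and 1.00. Both came from the third H2B R95A array, which read 7.04 for MEP2 and 8.76 for GAP1 where the other 5 arrays were at or above 9.31 and 11.04. Genes of the TOR complexes and their effectors gave a median of 0.07 over 24, with none past the test.

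**Figure D4:**
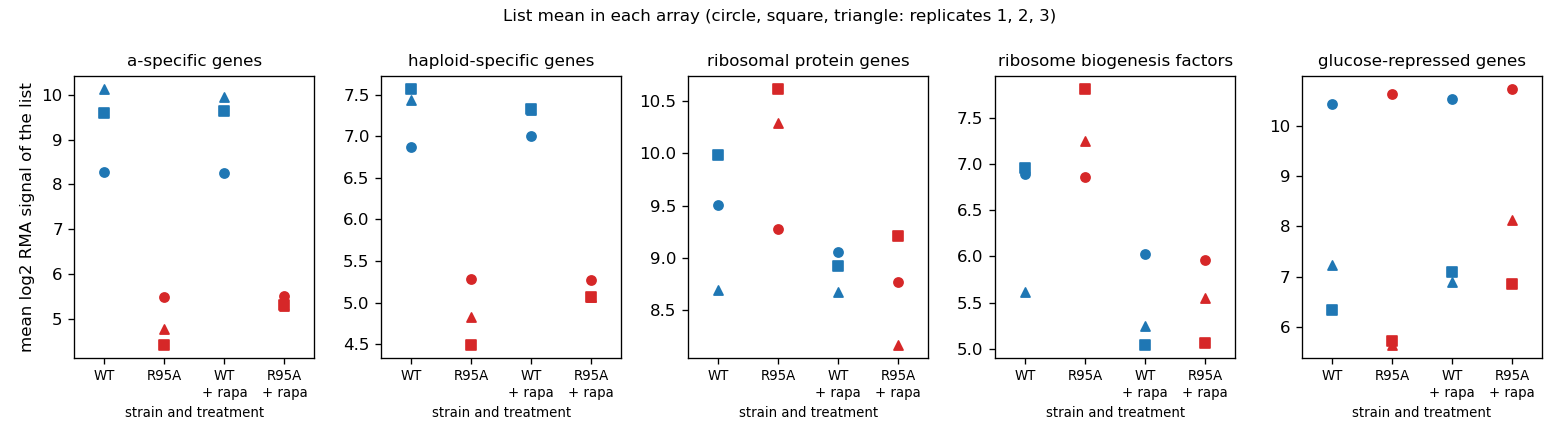
Mean log2 RMA signal (vertical axis) of 5 gene lists in each array by strain and treatment, with circles, squares and triangles for replicates 1, 2 and 3. The a-specific and haploid-specific means of H2B R95A lie below those of H2B WT in both conditions, the treated strains overlap for both ribosomal lists, and replicate 1 is high for the glucose-repressed genes throughout.

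Cell cycle and chromatin genes were close between the strains as well. CLN2, a G1 cyclin, read 6.26, 6.13 and 6.18 in H2B WT and 6.58, 5.28 and 5.17 in H2B R95A, with overlap and a log2 fold change of -0.51 (standard error 0.39). CLN1 and CLN3, the other G1 cyclins, had log2 fold changes of 0.27 and -0.12, and SIC1, an inhibitor of S-phase cyclin kinase, 0.15. None of 18 G1 cyclin and Start genes passed the test. Histone genes had a median of 0.12 over 10, genes of H2B ubiquitination and H3 methylation 0.07 over 22, and silencing factors 0.06 over 18, again with none past the test. SIR2, the deacetylase of silent chromatin, was the member of the silencing list farthest from 0, at 7.12, 6.95 and 6.97 in H2B WT and 6.80, 5.92 and 5.64 in H2B R95A. Its strains did not overlap (log2 fold change -0.90, adjusted p = 0.13 with the block from limma).

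The genes called under rapamycin were also called without it. In the untreated arrays 22 probe sets passed the same test (0.4%). All 19 calls under rapamycin were among them with the same direction, which is 100% of the treated calls and 86.36% of the untreated ones. Both sets of calls used the same estimate of the spread, so that they are not fully independent. For MFA2 the log2 fold change was -5.56 without rapamycin and -5.16 with it, for STE5 -2.19 and -1.76, for COS12 2.59 and 2.56, and for IME4 2.32 and 2.75. Median values were -4.41 and -4.07 for the a-specific genes and -2.31 and -1.95 for the haploid-specific genes. The difference between the 2 conditions was tested as an interaction in limma, and none of the 5498 probe sets passed. At an unadjusted p under 0.05 there were 8. At the methods' threshold 1 remained, TRM11, a subunit of a tRNA methyltransferase, which had log2 fold changes of 1.53 without and 0.01 with rapamycin (unadjusted p = 0.0081, adjusted p = 1.00 from limma). YAR009C, a Ty1 retrotransposon gene, passed the test without rapamycin (-1.65) and not with it (-0.41), and its interaction did not pass (unadjusted p = 0.010 from limma).

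Over all tested probe sets, fewer differences reached 2-fold under rapamycin than without it. With the drug 9 probe sets were at least 2-fold higher and 46 at least 2-fold lower in H2B R95A, and without it 140 were higher and 102 lower. Whether these counts differ was not tested. The ribosomal protein list, RPP1 included, had a median of 0.65 without rapamycin, with 127 of 128 positive. With the drug its median was -0.18, with 22 positive. Ribosome biogenesis factors had medians of 0.80 and 0.10. None of either list passed the interaction test. Over the ribosomal protein genes the untreated mean log2 signal was 9.50, 9.98 and 8.69 in H2B WT and 9.27, 10.62 and 10.29 in H2B R95A. H2B R95A was thus lower in replicate 1 and higher in replicates 2 and 3. Over the biogenesis factors the untreated means were 6.89, 6.96 and 5.61 against 6.86, 7.82 and 7.25, with the lowest value again in replicate 3 of H2B WT. The ribosomal protein mean of that array was within the range of the treated arrays, 8.16 to 9.21.

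**Figure D5:**
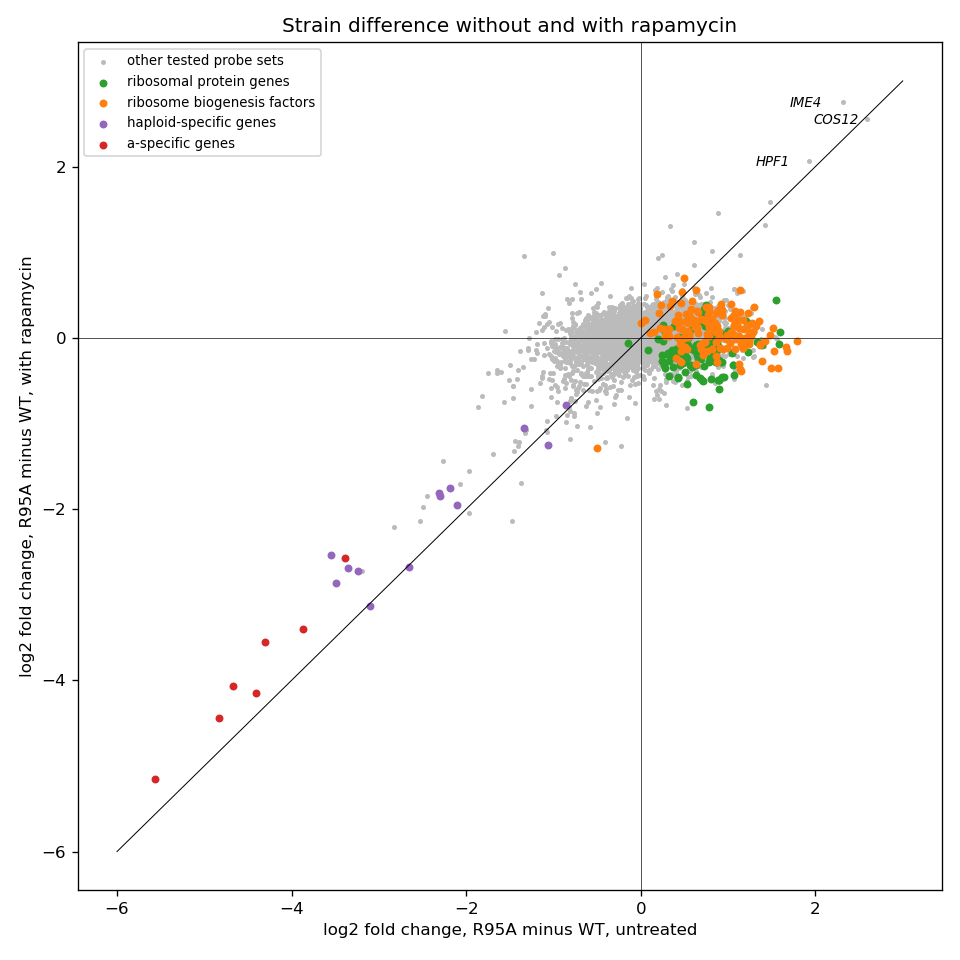
Log2 fold change of H2B R95A minus H2B WT with rapamycin (vertical axis) against that without it (horizontal axis) for each of 5498 probe sets, with equal values on the diagonal line. The a-specific (red) and haploid-specific (purple) genes lie near the diagonal, and the ribosomal protein (green) and ribosome biogenesis (orange) genes lie to the right of 0 and around 0 on the vertical axis.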

How the data were processed

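RNA extracted with hot phenol was labelled with a 3′ in vitro transcription kit and hybridised in 1 colour to Affymetrix Yeast Genome 2.0 arrays. The authors imported the scans into FlexArray and applied RMA. The deposited values are therefore background-corrected, quantile-normalized log2 signals. All columns matched a sample, 0 were left over and 0 pairs of arrays were identical. Probe sets with no listed gene (3470), controls (213) and those of Schizosaccharomyces pombe were not tested. Gene symbols came from the platform annotation and gene order from RefSeq's R64 assembly. The build behind the probe sets is not given in the sources used here, so that no coordinates are printed.

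Group means were fitted over all 12 arrays in limma 3.58.1 (R 4.3.3), with a variance trend and Benjamini-Hochberg adjustment over 5498 probe sets. The replicate numbers paired the treated strains. Deviations from the group means correlated at 0.885, 0.784 and 0.74 for replicates 1, 2 and 3, and at most 0.226 across numbers. Centring on the group means ties these values together, so that the low values across numbers partly follow from the high ones within numbers. The median standard error was 0.295 without and 0.126 with the block. Lists used 1 probe set a gene, the brightest. Named genes were the 15 largest rises and falls past the test, list members past the test, up to 4 others of each list, 10 by interaction, and cassette, histone and marker genes. Further genes past the test with the replicate block, members of lists with small differences, YGL262W, YFR057W, YIR042C and the neighbouring pairs were named after their values were seen. The members and lists were chosen with earlier results of these data known. Alternatives were cyber-T (window 101, confidence 10, the methods' test), no trend, array weights, other scalings, filters, thresholds and array sets. The fit was also run on simulated data that were drawn without a replicate effect, so that this run does not test the pairing seen in these arrays. The number of arrays limits the precision. A promoter motif search was not made here.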

Additional observations from a re-analysis of the deposited data

Results flagged for a closer look

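Among 3471 probe sets outside the tested set because no single gene is listed for them, 3 were at least 2-fold higher in rapamycin-treated H2B R95A with all arrays apart, and 0 were at least 2-fold lower with all arrays apart. By the same criterion 7 of the 5498 tested probe sets were higher and 43 lower. They stood out because they carry a strain difference outside the main measurement. Probe set 1777712_at read 1.59, 1.19 and 1.53 in H2B WT and 4.72, 5.02 and 5.22 in H2B R95A. Its H2B WT arrays lay around the S. pombe 95th percentile of 1.37, 1 of them below it, so that no fold is given. Probe set 1773061_s_at read 7.00, 7.95 and 7.79 against 9.00, 10.25 and 10.23 (2.25, and 2.20 without rapamycin). Probe set 1776828_at read 2.98, 3.76 and 3.54 against 4.12, 5.48 and 5.26 (1.53, and 1.68 without rapamycin). No gene name was available for them here, and they were given no test.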

How the results depend on the processing

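The 2 higher probe sets became 4 with cyber-T, 6 with array quality weights, 6 with the replicate block over 12 arrays, 12 with the replicate block over the 6 treated arrays, 1 with spike-in centring and 6 at the study's threshold. The 17 lower ones became 26, 32, 30 and 46 under the first 4 of these, 32 at the study's threshold, 10 in a fit of the 6 treated arrays alone, 8 without replicate 1 of both treated groups and 6 at an adjusted p under 0.01. Leaving out 1 array at a time, without the replicate block, gave 2 higher throughout and from 6 to 15 lower. There were 15 without H2B WT replicate 1, 12 of them among the 17. There were 10 without H2B R95A replicate 1 and 6 without each of the other 4 arrays. Cyber-T at the study's threshold gave 8 higher and 44 lower. The interaction count stayed at 0 except at the study's threshold (1). SIT1, an iron-siderophore transporter, was higher with the replicate block and did not pass over 12 arrays (adjusted p = 0.562 from limma). Its log2 fold change turned to -0.29 without H2B R95A replicate 1 and was 1.84 without H2B WT replicate 1. Both fits lacked the replicate block. With all arrays in place, the SIT1 gap within replicates 1, 2 and 3 was 0.61, 0.81 and 0.81. FAR1 lost its call only without replicate 1 of both groups (adjusted p = 0.0716 from limma), and ICS2 and RME1 lost theirs in 9 of 18 alternatives. Spike-in centring gave all probe sets a median of -0.35, and the other alternatives between -0.01 and 0.03. The causes were not tested. A floor at the 95th percentile of the S. pombe signal (1.37) kept 5483 probe sets and left both counts as they were.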
